A study of Homo sapiens with 3 samples.

Results

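The genes described here are 10 regulators of apoptosis, namely 9 members of the BCL2 family (BCL2, BCL2L1, MCL1, BAX, BAK1, BID, BBC3, PMAIP1 and BCL2L11) and the caspase inhibitor gene XIAP. They were chosen by name as genes that set the balance of cell survival and death, and all 10 were found among the 60504 genes of the deposited expression table. The table came from RNA-Seq of DLD1, a cell line long grown from a colorectal cancer. Of its 3 libraries, 1 was made from wild type cells (DLD1 control cells) and the other 2 from BEX2-/- cells, labelled KO1 and KO2. BEX2 was knocked out by CRISPR/Cas9 with a single target sequence, and clones were screened by sequencing. The sources used here do not say whether KO1 and KO2 came from separate clones or were repeated from 1 knocked-out line, so the spread between them may be clonal or technical, and the control was not repeated. No drug or time course was part of these samples.

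Mitochondrial apoptosis is set by the contacts between proteins of the BCL2 family. Survival members such as BCL2, BCL-XL (the product of BCL2L1) and MCL1 hold the effectors BAX and BAK in check. BH3-only members such as BID, PUMA (BBC3), NOXA (PMAIP1) and BIM (BCL2L11) occupy the survival proteins or activate the effectors, which then open the outer mitochondrial membrane and release cytochrome c. XIAP acts further down, where it binds and inhibits caspases. Colorectal cancer cells are known to lean on BCL-XL and MCL1 more than on BCL2, and much of the control of these proteins lies in their stability and contacts, which mRNA levels do not show.

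Expression was given as FPKM, fragments scaled to exon length and to library size. Low values moved in whole reads and gave depths of 35593988 reads in KO1, the shallowest library, and 47458850 and 47722374 in the control and KO2. BEX2 stood at 0 FPKM in the control, KO1 and KO2 alike (3 reads in the control would be 0.0538 FPKM), so its mRNA gave no check of the labels. The authors reported BEX2 protein as relatively high in DLD1 among colorectal cancer lines, and checked the knockout by sequencing and western blotting. Why the mRNA was at 0 in the control was not tested. All 7 colon epithelium markers examined passed the filter on low values in these libraries, with summed levels between 1600 and 1855 FPKM and KRT8, a keratin not restricted to the intestine, the highest. VIL1, which encodes a microvillus protein, differed between KO1 and KO2, with 3.61 FPKM in the control, 13.2 in KO1 and 0.221 in KO2. None of 13 fibroblast, leukocyte and endothelium markers passed the filter. Their summed levels were at most 0.634 FPKM for fibroblast markers (mainly PDGFRB in KO1), 0.793 for leukocyte markers (mainly CD14 in each library) and 0.0784 for endothelium markers (mainly VWF). The leukocyte gene PTPRC was at 0 in every library.

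Promoter sequences from RefSeq on GRCh38.p14 are shown for PMAIP1, the member that differed most between the BEX2-/- libraries, and for BCL2L1, the survival gene whose level in KO1 lay farthest below the control. Each is the run of 250 bases before the annotated start, 5′ to 3′ on the strand of the gene. PMAIP1 lies on the plus strand at chr18:59899746-59899995, and the capitals mark TGACGT, the half-site of the cAMP response element, which is read here on the opposite strand 56 bases before the start. BCL2L1 lies on the minus strand at chr20:31723964-31724213, and the capitals mark TATAAA, the core of the TATA box, at 208 and 125 bases before the start.
PMAIP1: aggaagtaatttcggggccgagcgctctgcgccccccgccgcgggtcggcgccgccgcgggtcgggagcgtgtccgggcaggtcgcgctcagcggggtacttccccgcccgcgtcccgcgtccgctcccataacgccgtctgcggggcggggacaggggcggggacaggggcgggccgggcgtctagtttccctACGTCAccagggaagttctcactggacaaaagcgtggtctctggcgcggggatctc
BCL2L1: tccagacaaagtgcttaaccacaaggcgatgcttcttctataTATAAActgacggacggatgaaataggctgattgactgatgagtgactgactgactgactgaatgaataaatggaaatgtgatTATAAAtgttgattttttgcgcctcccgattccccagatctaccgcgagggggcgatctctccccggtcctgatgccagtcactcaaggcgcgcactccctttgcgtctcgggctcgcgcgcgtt

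The same windows were searched on both strands in the 9 members that have an entry. TGACGT was found in PMAIP1 alone among them and in 7.10% of 35116 windows, and TATAAA in BCL2L1 alone and in 10.7% of windows. CACGTG, the E-box bound by MYC and related factors, was found in BAX, BID and BBC3 and in 6.34% of windows. TGANTCA, the AP-1 element, was found in BBC3 and in 6.57% of windows. The p53 half-site consensus was found in BAK1 and in 5.57% of windows, and the NF-kappaB consensus in none of the members and in 9.96% of windows. These are matches of letters within short windows and no binding was measured.

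Of the survival genes, BCL2L1 and MCL1 were abundant and BCL2 was close to absent. BCL2 (ENSG00000171791, on GRCh38 at chromosome 18, 63123346 to 63320128), the founding survival gene, was at 0.159 FPKM in the control, 0.170 in KO1 and 0.0659 in KO2, which stand for 89, 71 and 37 reads. KO2 was the lowest, by 2.42-fold against the control (95% interval 1.63 to 3.65), and KO1 was close to the control, with a ratio of 1.06 (0.768 to 1.47). The intervals here and below are exact intervals on the recovered reads and cover counting error only, not the spread between cultures. In bulk RNA, fewer cells that express a gene and less RNA per cell cannot be told apart.

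BCL2L1 (ENSG00000171552, chromosome 20, 31664452 to 31723989) was at 34.6 FPKM in the control, 21.6 in KO1 and 33.5 in KO2. The KO1 library was the low one, at 0.624 of the control (0.595 to 0.654), while KO2 stood at 0.969 (0.933 to 1.01). The mean of the BEX2-/- libraries was 27.5 ± 8.43 FPKM (SD, n = 2), and the control lay within that SD. KO2 exceeded KO1 by 1.55-fold (1.48 to 1.63). The gene gives rise to a long survival form and a short form that promotes death, and values per gene do not separate them. Of its exons, 43.0% are shared with the antisense gene ABALON, which was at 0.133, 0.266 and 0.154 FPKM, and without strand the reads of the pair cannot be told apart.

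MCL1 (ENSG00000143384, chromosome 1, 150574551 to 150579738), a survival gene with a short-lived mRNA and protein, showed the other pattern. It was at 30.2 FPKM in the control, 30.7 in KO1 and 44.4 in KO2, with KO2 the highest. KO2 was 1.47-fold higher than the control (1.42 to 1.52) and 1.44-fold higher than KO1 (1.39 to 1.49), and KO1 differed from the control by a ratio of 1.02 (0.980 to 1.06). That direction turned when libraries were scaled by the median ratio, while with scaling to TPM the KO1 interval excluded 1 (1.06, 1.02 to 1.10). BCL2L1 was above MCL1 in the control, with 0.874 units of MCL1 to 1 of BCL2L1 in FPKM, and below it in both BEX2-/- libraries, with 1.43 in KO1 and 1.32 in KO2.

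Of the effectors, BAX was the more abundant in every library and the gap between them was smallest in KO2. BAX (ENSG00000087088, chromosome 19, 48954815 to 48961798) was at 24.2 FPKM in the control, 22.8 in KO1 and 19.9 in KO2. Both BEX2-/- libraries were below the control, KO1 at 0.941 of it (0.890 to 0.996) and KO2 at 0.820 (0.777 to 0.866). With scaling to TPM the KO1 interval took in 1 (0.982, 0.928 to 1.04). BAK1 (ENSG00000030110, chromosome 6, 33572547 to 33580293) was at 6.85 FPKM in the control, 7.28 in KO1 and 8.72 in KO2. KO2 was 1.27-fold higher than the control (1.15 to 1.41), and at this depth KO1 could not be told from the control (1.06, 0.950 to 1.19). The ratio of BAX to BAK1 in FPKM was 3.53 in the control, 3.13 in KO1 and 2.28 in KO2. The BAK1 pseudogene BAK1P1 was at 0.0659 FPKM or below.

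All 4 BH3-only members were lowest in KO1, intermediate in the control and highest in KO2. PMAIP1 (ENSG00000141682, chromosome 18, 59899948 to 59904306) encodes NOXA, which binds MCL1 above all and is a p53 target in cells with intact p53. It was at 8.10 FPKM in the control, 4.64 in KO1 and 13.2 in KO2, from 859, 369 and 1403 reads. The BEX2-/- libraries lay on opposite sides of the control, KO1 at 0.573 of it (0.506 to 0.648) and KO2 at 1.62 (1.49 to 1.77). KO2 exceeded KO1 by 2.84-fold (2.53 to 3.19). The mean of the BEX2-/- libraries, 8.90 ± 6.02 FPKM (SD, n = 2), was close to the control value because the BEX2-/- libraries departed from it in opposite directions.

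BID (ENSG00000015475, chromosome 22, 17734138 to 17774770) links death receptors to mitochondria once caspase-8 has cut its protein. It was at 13.6 FPKM in the control, 10.6 in KO1 and 17.0 in KO2, and was the most abundant of the 4 BH3-only members in each library. KO1 stood at 0.778 of the control (0.732 to 0.827) and KO2 at 1.25 (1.19 to 1.31), again on opposite sides. BBC3 (ENSG00000105327, chromosome 19, 47220822 to 47232766), another p53 target, was at 3.65 FPKM in the control, 3.22 in KO1 and 4.94 in KO2. Its KO2 library was 1.35-fold above the control (1.21 to 1.51), and the KO1 interval took in 1 (0.881, 0.769 to 1.01) except when libraries were scaled by the median ratio (0.851, 0.744 to 0.973).

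BCL2L11 (ENSG00000153094, chromosome 2, 111119378 to 111168447) encodes BIM, which binds every survival member. It was the lowest of the 4, at 2.24 FPKM in the control, 1.71 in KO1 and 2.32 in KO2. KO1 was at 0.764 of the control (0.674 to 0.864), and KO2 was not distinguishable from it at this depth (1.04, 0.935 to 1.15). The antisense gene MIR4435-2HG shares 10.9% of its exons and had the same order of libraries, with 1.80 FPKM in the control, 1.05 in KO1 and 2.38 in KO2. The part of these reads in the BCL2L11 values was not tested.

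XIAP (ENSG00000101966, chromosome X, 123859724 to 123913979) was higher in both BEX2-/- libraries than in the control. It was at 2.51 FPKM in the control, 3.31 in KO1 and 2.93 in KO2, which stand for 1076, 1063 and 1260 reads. The ratio to the control was 1.32 in KO1 (1.21 to 1.44) and 1.16 in KO2 (1.07 to 1.26). The mean of the BEX2-/- libraries was 3.12 ± 0.271 FPKM (SD, n = 2), more than 1 SD above the control value. KO1 and KO2 differed by a ratio of 0.884 (0.814 to 0.960), and with scaling by the median ratio this interval took in 1 (0.924, 0.851 to 1.00). The pseudogenes of XIAP were at 0.0791 FPKM or below.

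The comparison the design sets is of the BEX2-/- libraries with the control, and no member passed it. Log2 ratios of FPKM + 1 were used, which understate the change of low genes, for the 11675 genes whose mean of the control value and the average of the BEX2-/- libraries was 1 FPKM or more. BCL2 did not pass this filter and 9 members did. A limma fit of the BEX2-/- libraries (n = 2) against the control (n = 1), in which the lone control is assumed to vary as the BEX2-/- libraries do, gave 0 of 9 members an adjusted p under 0.05 (Benjamini-Hochberg), as for 0 of all genes (0.00%). At an unadjusted p under 0.05 there were 0 of 9 members and 139 genes (1.19%). The limma estimates of the members had standard errors between 0.192 for BAX and 0.635 for PMAIP1 on the log2 scale. The smallest unadjusted limma p was 0.339, for XIAP, which was higher in 2 of 2 BEX2-/- libraries with a log2 estimate of 0.23, and its adjusted limma p was 0.9999. BAX, BAK1 and XIAP had a mean of the BEX2-/- libraries more than 1 SD (n = 2) from the control, and the other 6 members did not. The share of all genes past the same mark was not computed, so this count does not set the members apart.

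By size of change, 0 of 9 members differed at least 2-fold from the control in KO1 (2.02% of all genes did), 0 of 9 in KO2 (2.06%) and 0 of 9 in both BEX2-/- libraries together on 1 side of the control (0.325%). Between KO1 and KO2 1 of 9 did, PMAIP1, where KO2 was higher by a log2 ratio of 1.33 (4.19% of all genes differed so). At 1.5-fold, BCL2L1 and PMAIP1 were lower in KO1 than in the control (2 of 9, against 6.25% of genes in either direction). PMAIP1 was higher in KO2 (1 of 9, against 8.33%), and BCL2L1, BID and PMAIP1 were higher in KO2 than in KO1 (3 of 9, against 12.4%). The median of the 9 log2 ratios was -0.14 in KO1 and 0.30 in KO2 against the control, and 0.49 for KO2 against KO1, beside medians over all genes of 0.037, -0.013 and -0.054. Averaged over the BEX2-/- libraries the members' median was -0.016, with a turn of direction to 0.046 under scaling to TPM. The comparisons of KO1 and KO2 with the control share the control library.

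Plain FPKM ratios, with no pseudocount and no filter on the mean, were added after the values were seen. Genes of known exon length with more than 3 reads in at least 1 library were kept, 22827 in all. Any value below 3 reads was raised to 3 reads, so a gene could enter through 1 library alone. By this measure BCL2 was also past 2-fold, in KO2 against the control (1 of 10 members, 17.3% of 22827 genes) and, with PMAIP1, in KO2 against KO1 (2 of 10, 19.7%). In KO1 against the control 0 of 10 members passed (15.1% of genes), and in both BEX2-/- libraries in the same direction 0 of 10 (4.58%).

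At these depths most genes, members and others alike, differed between libraries by more than counting error. The interval excluded 1 for 6 of 9 members in KO1 against the control (64.2% of 10514 genes with recovered reads), for 7 of 9 in KO2 against the control (69.7%) and for 9 of 9 between KO1 and KO2 (69.7%). Both BEX2-/- libraries lay on the same side of the control beyond counting error for BAX and XIAP (2 of 9, against 31.6%). KO1 was below and KO2 above the control beyond counting error for BID and PMAIP1 (2 of 9, against 7.00%). By order of values alone, the 4 BH3-only members had KO1 lowest and KO2 highest with the control between them (4 of 9, against 16.1%), and 0 of 9 had the reverse order (23.9%). MCL1, BAK1 and XIAP were higher in both BEX2-/- libraries than in the control (3 of 9, against 32.4%), and BCL2L1 and BAX lower in both (2 of 9, against 27.7%). The value of MCL1 in KO1 under scaling by the median ratio, and that of BCL2L1 in KO2 under scaling to TPM, fell on the other side of the control. These orders were picked out after the values were seen.

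**Figure D1:**
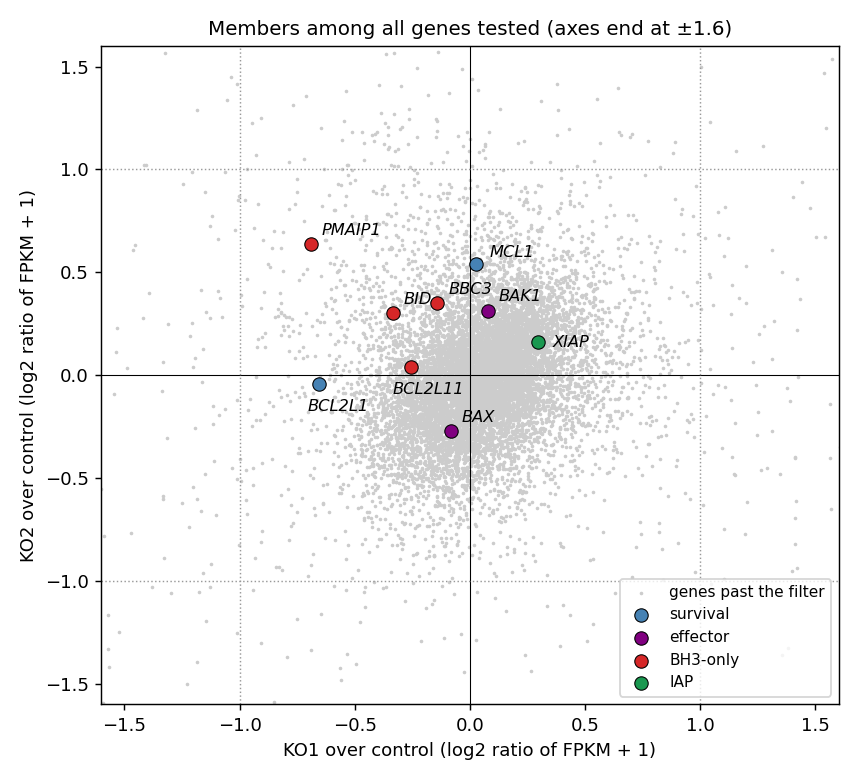
Log2 ratio of FPKM + 1 of KO1 to the control (horizontal) and KO2 to the control (vertical) for the 11675 genes past the filter (grey; 104 lie outside the axes) and the 9 members past it, coloured by role. The 4 BH3-only genes lie in the upper left (lower in KO1, higher in KO2), with PMAIP1 farthest out at -0.69 and 0.64, and no member lies beyond the dotted 2-fold lines.

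The survival, effector and BH3-only genes were then summed within each library, since FPKM is per length. The survival sum (BCL2, BCL2L1 and MCL1) was 64.9 FPKM in the control, 52.5 in KO1 and 77.9 in KO2. The effector sum (BAX and BAK1) was 31.1, 30.1 and 28.6 FPKM, and the BH3-only sum (BID, BBC3, PMAIP1 and BCL2L11) was 27.6, 20.1 and 37.4 FPKM. The survival and BH3-only sums were thus both lowest in KO1 and highest in KO2, and the effector sum varied least.

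The ratio of survival to effector mRNA was 2.09 in the control, 1.75 in KO1 and 2.73 in KO2, differences from the control of -0.26 and 0.38 on the log2 scale. The ratio of survival to BH3-only mRNA, over the members alone, was 2.35 in the control, 2.61 in KO1 and 2.08 in KO2. The differences from the control were 0.15 and -0.18 on the log2 scale. In each case the BEX2-/- libraries lay on opposite sides of the control, and the ratios to effectors and to BH3-only genes were ordered oppositely. Averaged over the BEX2-/- libraries, the differences from the control were 0.061 and -0.015 on the log2 scale, smaller than the SDs between KO1 and KO2 of 0.455 and 0.228. MCL1 made up 46.5% of the mRNA of the survival members in the control, 58.6% in KO1 and 56.9% in KO2. In the same order, PMAIP1 made up 29.4%, 23.0% and 35.2% of the mRNA of the BH3-only members. MCL1 stood to PMAIP1 as 3.73, 6.63 and 3.37 to 1, again in that order. BIK, a BH3-only gene outside these sums, was at 20.1, 13.9 and 39.8 FPKM, above BID in each library.

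The members were set beside 47 other genes of apoptosis in 9 lists, of which 38 passed the filter. None of the 38 was past 2-fold on the same side of the control in both BEX2-/- libraries, and 0 had an adjusted limma p under 0.05 (0 also at an unadjusted limma p under 0.05). In KO1 none differed 2-fold from the control. In KO2, 2 were at least 2-fold higher, BCL2L15 and BIRC3, and none was lower (2.06% of all genes differed so in either direction). Between KO1 and KO2, 5 were at least 2-fold higher in KO2 and none was lower (4.19% in either direction).

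The 5 were BIK, BCL2L15, BIRC3, CASP10 and TNFRSF10B. BIK, a further BH3-only gene, was at 20.1 FPKM in the control, 13.9 in KO1 and 39.8 in KO2, and BCL2L15, a BCL2-like gene, at 2.18, 1.59 and 6.33 FPKM. BIRC3 encodes cIAP2, a ubiquitin ligase induced by NF-kappaB, and was at 1.99 FPKM in the control, 0.751 in KO1 and 6.42 in KO2. CASP10, an initiator caspase, was at 1.62, 1.09 and 3.34 FPKM, and TNFRSF10B, a receptor for the death ligand TRAIL, at 19.3, 14.6 and 37.0 FPKM. All 5 were chosen for being higher in KO2 than in KO1, and the control lay between the 2 for each of them. With BIK and BAD added, the other BH3-only genes past the filter, 5 of 6 BH3-only genes had KO1 lowest and KO2 highest, against 16.1% of all genes, with BAD as the exception. The 4 members among them were already counted above. By order of values alone it was not particular to BH3-only genes, since 6 of 8 genes past the filter in the death receptor pathway list had it too. Among the apoptosome and caspase genes 1 of 9 had it. For 3 of the death receptor pathway genes the interval of KO1 against the control took in 1. These were FADD (0.965, 0.793 to 1.17), TRADD (0.994, 0.892 to 1.11) and CFLAR (0.946, 0.886 to 1.01). For FAS no reads were recovered.

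The most abundant genes of the lists, BIK and TNFRSF10B aside, were each under 2-fold apart in every pair of libraries. The survival gene BCL2L2 was at 7.47 FPKM in the control, 7.55 in KO1 and 8.22 in KO2. BCL2L12 was at 34.4, 21.3 and 28.5 FPKM, lowest in KO1 like BCL2L1. BIRC5, which encodes the mitotic protein survivin, was at 43.2 FPKM in the control, 35.5 in KO1 and 21.7 in KO2. Its KO2 value was 1.99-fold below the control (1.92 to 2.07), an interval that took in 2. CYCS, the gene of cytochrome c, was at 66.2, 63.4 and 55.9 FPKM, and VDAC1, a channel of the outer mitochondrial membrane, at 123, 153 and 130 FPKM. HTRA2, which counters XIAP, was at 6.97, 7.60 and 6.49 FPKM, and HUWE1, a ubiquitin ligase that marks MCL1 for degradation, at 12.7, 13.5 and 15.5 FPKM. APAF1, the scaffold of the apoptosome, was picked out after its values were seen and was higher in 2 of 2 BEX2-/- libraries, at 1.90 FPKM in the control, 3.20 in KO1 and 3.66 in KO2. Its limma estimate was 0.61 on the log2 scale, with an unadjusted limma p of 0.0505 and an adjusted limma p of 0.9999.

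PMAIP1 had the widest range of the members, and its pattern was compared with 10041 other protein-coding genes by the distance between the pairs of log2 ratios to the control. The nearest over the 3 libraries were KIT at a distance of 0.028, PALD1 at 0.064 and BAMBI at 0.070. KIT was at 9.78 FPKM in the control, 5.79 in KO1 and 15.6 in KO2. Across the members the order of levels was similar in the libraries, with BCL2L1, MCL1 and BAX in the first 3 places, BID next and BCL2 last in each. Neighbours changed places in KO1, where BAK1 (7.28 FPKM) was above PMAIP1 (4.64) and XIAP (3.31) above BBC3 (3.22).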

How the data were processed

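RNA-Seq libraries of DLD1 control cells (n = 1) and BEX2-/- DLD1 cells (n = 2, KO1 and KO2) were grouped by their labels. Libraries were prepared with the Illumina TruSeq RNA kit, and the authors deposited expression as FPKM per Ensembl gene. The submitters' processing notes name Trim Galore 0.3.7, STAR 2.5, Cufflinks 2.2.1, DESeq 1.22.1 and hg19, with no role or order, and the annotation is not given in the sources used here. Positions and merged exons were taken from the GRCh38 annotation of GENCODE 29, in which 56996 of 60504 identifiers were found, so positions are of that build and were not read from the deposited table.

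Ratios were taken of log2(FPKM + 1) for genes with a mean of at least 1 FPKM. The BEX2-/- libraries were compared with the control by limma 3.58.1 (R 4.3.3) with a trended prior, 1 residual degree of freedom and Benjamini-Hochberg adjustment over 11675 genes. DESeq needs counts and was not run. Reads were recovered by multiplying FPKM by exon length and by the depth at which low values became whole (within 0.02 of a whole number). This held for 98.7% to 98.8% of values of at most 100 reads in genes with a single transcript, for 87.8% to 88.3% in other genes, and for all 10 members. Ratios of reads have exact 95% conditional binomial intervals. Other tools were scipy 1.17.1, numpy 2.4.6, matplotlib 3.10.9 and pandas 2.3.3 under Python 3.11.15. The methods were tested on simulated data in which changed genes shifted equally in both BEX2-/- libraries. That setting is unlike the members that moved in opposite directions, and its outcome is not used here.

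The genes named were the 10 members, from each list the gene of highest mean FPKM and up to 4 genes at least 2-fold apart in any pair of libraries, the 3 genes nearest in pattern to the member of widest range, and BEX2. Others named were chosen after their values were seen. The members and lists were chosen with earlier results of these data known. Alternatives were another pseudocount, filter, scaling, fold threshold and prior, and the omission of each BEX2-/- library.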

Additional observations from a re-analysis of the deposited data

How the results depend on the processing

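The control has 1 library and so no spread. The limma p-values rest on the spread between 2 BEX2-/- libraries, which may be technical, moderated by a trend of that spread over all genes. At a 1.5-fold threshold the number of members past it went from 0 to 2 in KO1 against the control, from 0 to 1 in KO2 against the control and from 1 to 3 between KO1 and KO2. FPKM ratios without a pseudocount or the filter on the mean were added after the values were seen. By these it was 1 in KO2 against the control and 2 between KO1 and KO2, with BCL2 as the added gene. The other counts of members, limma calls included, were the same under a pseudocount of 0.1 FPKM, no filter, a mean of at least 5 FPKM (which left 6 members), scaling to TPM or by the median ratio, and limma without a trended prior. Without 1 of the BEX2-/- libraries the members' median log2 ratio to the control ranged from -0.14 (KO1 alone) to 0.30 (KO2 alone), the balance of survival to effector genes from -0.26 to 0.38 and that of survival to BH3-only genes from -0.18 to 0.15, each with a change of direction. Limma leaves no residual degree of freedom without either, so no test was made there. The median over all genes moved by at most 0.066 (log2) under either scaling. Under the other pseudocount and both scalings, 26 of 27 ratios of single members to the control moved by less than the spread, with XIAP at 0.34 under scaling to TPM as the exception. So did 26 of 27 ratios of KO2 to KO1 against their counting interval, with MCL1 at 0.58 under scaling by the median ratio as the exception. Each filter leaves the ratio of a kept gene as it was, and with a BEX2-/- library left out the ratio of PMAIP1 to the control ranged from -0.69 to 0.64. No paired analysis was possible because the control has a single library, so the groups share fewer than 2 replicate numbers.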
